A study of Mus musculus with 9 samples.

Results

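The genes described here encode the nuclear subunits of the mitochondrial respiratory chain and of ATP synthase. They were chosen by gene symbol, as genes named Nduf (a, b, c, s or v with a number), Uqcr, Sdha to Sdhd, Cox4 to Cox8 or Atp5, with a mean of at least 10 estimated counts over the 9 libraries. Of 18571 genes in the table, 84 matched the names and 81 of these passed the minimum: 38 for complex I, 4 for complex II, 8 for complex III, 14 for complex IV and 17 for complex V. The 3 matches below the minimum were Cox7a1 (mean of 7.33 counts), Cox8b (6.19) and Cox7b2 (0.444). The lowest members were Cox6b2 (26.5 counts), Cox4i2 (46.2) and Ndufa4l2 (97.6), and all 81 members passed the filter on low counts used for testing. The complex was assigned from the name, so Ndufa4, now regarded as a complex IV subunit, is counted under complex I.

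RNA was sequenced from CD45-panned microglia (immune cells that reside in the brain) taken from cortex and hippocampus of mice aged 9 months on a C57BL6/j background, to study connexin 43 (Cx43, gene Gja1) in microglia in an Alzheimer's disease model. WT denotes wild-type mice and APP denotes APP/PS1 mice, which carry transgenes that lead to amyloid deposits. ACF denotes APP/PS1:Cx3cr1-CreER:Cx43-flox/flox mice, in which a tamoxifen-dependent Cre recombinase made under the control of Cx3cr1, a gene of microglia and other myeloid cells, recombines floxed Cx43. Per the labels, mice of all 3 groups received tamoxifen by gavage at 0.1 mg/g for 5 days at 8 months. Neither control group carried the Cre or the floxed allele by its label, so effects of the Cre insertion and of Cx43 loss cannot be told apart. Each group has 3 libraries. The labels do not say whether they came from separate mice or pools, so p-values measure only the spread between these libraries, which may be technical.

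Complexes I and II of the respiratory chain pass electrons from NADH and succinate to ubiquinone. Complex III passes them on to cytochrome c, and complex IV passes them from cytochrome c to oxygen. Complexes I, III and IV pump protons as they do so, and complex V, the ATP synthase, uses the resulting gradient to make ATP. In complex I, core subunits carry the flavin and iron-sulfur clusters, and accessory subunits surround them and serve assembly and stability. Some subunits of complex IV exist as alternative isoforms from separate genes. Several subunits of complexes I, III, IV and V are encoded by the mitochondrial genome, and those were not analysed here.

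Total estimated counts ran from 18907681 to 19565354 per library. Gja1 had 682, 642 and 716 counts in WT, 727, 688 and 788 in APP, and 514, 484 and 539 in ACF, so its reads were fewer in ACF but not absent, and the table does not show whether they come from recombined alleles (ACF against APP, log2 change -0.56, edgeR adjusted p = 7.95e-09). Counts of Ddx3y, a Y-linked gene, were 4252, 4137 and 4258 in WT, 4538, 4170 and 4415 in APP, and 0, 1 and 2 in ACF. Sex and genotype therefore cannot be told apart in any comparison with ACF. The summed level of 10 microglia markers was 23754 to 23884 CPM (counts scaled to library size) in WT, 27965 to 28115 in APP and 23853.5 to 23868 in ACF. This list includes Cx3cr1, the gene that drives the Cre, whose level was lower in ACF and is given at the end. The sum without Cx3cr1 was not taken. Of the 10 markers, 6 were called higher and 3 lower in APP than in WT. In ACF against APP 1 was higher and 7 were lower, and in ACF against WT 6 and 4. The summed level of 11 neutrophil and monocyte markers was 2891 to 2917 CPM in WT, 874 to 901 in APP and 8351 to 8493 in ACF. For 6 erythroid markers it was 1184 to 1239 CPM in WT, 248 to 275 in APP and 95.1 to 105 in ACF, and for 8 vessel markers 823 to 843, 783 to 799 and 620 to 633 CPM. Astrocyte and T and NK cell sums followed the order of the members, WT lowest and APP highest. The 9 astrocyte markers summed to 452 to 459 CPM in WT, 659 to 677 in APP and 505 to 514 in ACF. Of these, 9 of 9 were called higher in APP than in WT and 8 of 9 lower in ACF than in APP. In ACF against WT 5 of them were higher and 2 lower. The 5 T and NK cell markers in the table summed to 21.8 to 23.3, 32.3 to 33.4 and 24.4 to 26.6 CPM. Of the 4 tested, 3 were called higher and 1 lower in ACF than in WT. B cell, oligodendrocyte, neuron and border macrophage sums did not follow the order of the members without overlap. No marker in the table from these 10 lists was at 0 in all libraries of a group. The part of these markers in the results below was not tested. In bulk RNA, fewer cells of a type and less RNA per cell cannot be told apart.

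Subunit genes were higher in APP than in WT, and ACF lay between them and nearer to WT. Summed over the 81 genes, the level was 3877, 3883 and 3923 CPM in WT, 6891, 6901 and 6908 in APP, and 4523, 4584 and 4543 in ACF. The 3 groups did not overlap, and the sum for ACF was above every WT library and below every APP library. By edgeR's quasi-likelihood test (Benjamini-Hochberg adjusted p under 0.05 over 14696 genes), 75 members were higher in APP than in WT, 1 was lower and 5 were not called, where 26.9% of all tested genes were higher and 32% lower (59% called in all). The median log2 change of the members was 1.08 and that of all tested genes -0.04. In ACF against APP 74 members were lower and 2 higher, where 27.7% of all tested genes were lower and 27.3% higher (55% in all), and the medians were -0.78 for the members and -0.01 for all genes. In ACF against WT 60 members were higher and 2 lower, where 24.7% of all genes were higher and 23% lower (47.7% in all), with medians of 0.27 and -0.01. On deposited TPM, which moved the median of all genes to -0.38 in APP against WT and -0.18 in ACF against WT, 64 members were higher and 12 lower in APP than in WT, and 29 higher and 13 lower in ACF than in WT. Of the 13486 genes tested on TPM, 1654 were higher and 9378 lower in APP than in WT, and 1755 higher and 7007 lower in ACF than in WT. These comparisons share libraries, so they are not independent of each other.

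Change sizes differed between the comparisons. At least a 2-fold change beside the adjusted p was seen for 44 members in APP against WT (8.55% of all tested genes), for 22 in ACF against APP (7.65%) and for 2 in ACF against WT (5.19%), namely Cox6a2 and Ndufa1. With offsets for transcript length, described below, these numbers were 11 (9 higher and 2 lower; 6.42% of all genes), 0 (6.18%) and 3 (4.97%). Groups did not overlap in CPM for 76 members in APP against WT (63.5% of all genes), 76 in ACF against APP (59.7%) and 66 in ACF against WT (54.6%). For 60 of the 81 members (74.1%) every WT library was below every ACF library and every ACF library below every APP library, an order held by 7.72% of all tested genes. How many genes of like length hold this order was not counted. Of the 75 members that rose in APP, the part of that rise still seen in ACF, on the CPM scale, had a median of 18%. It was over 50% for 7 of them, among which were Ndufa8, Sdhc, Cox5a, Cox6a2, Atp5b and Atp5g2.

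**Figure D1:**
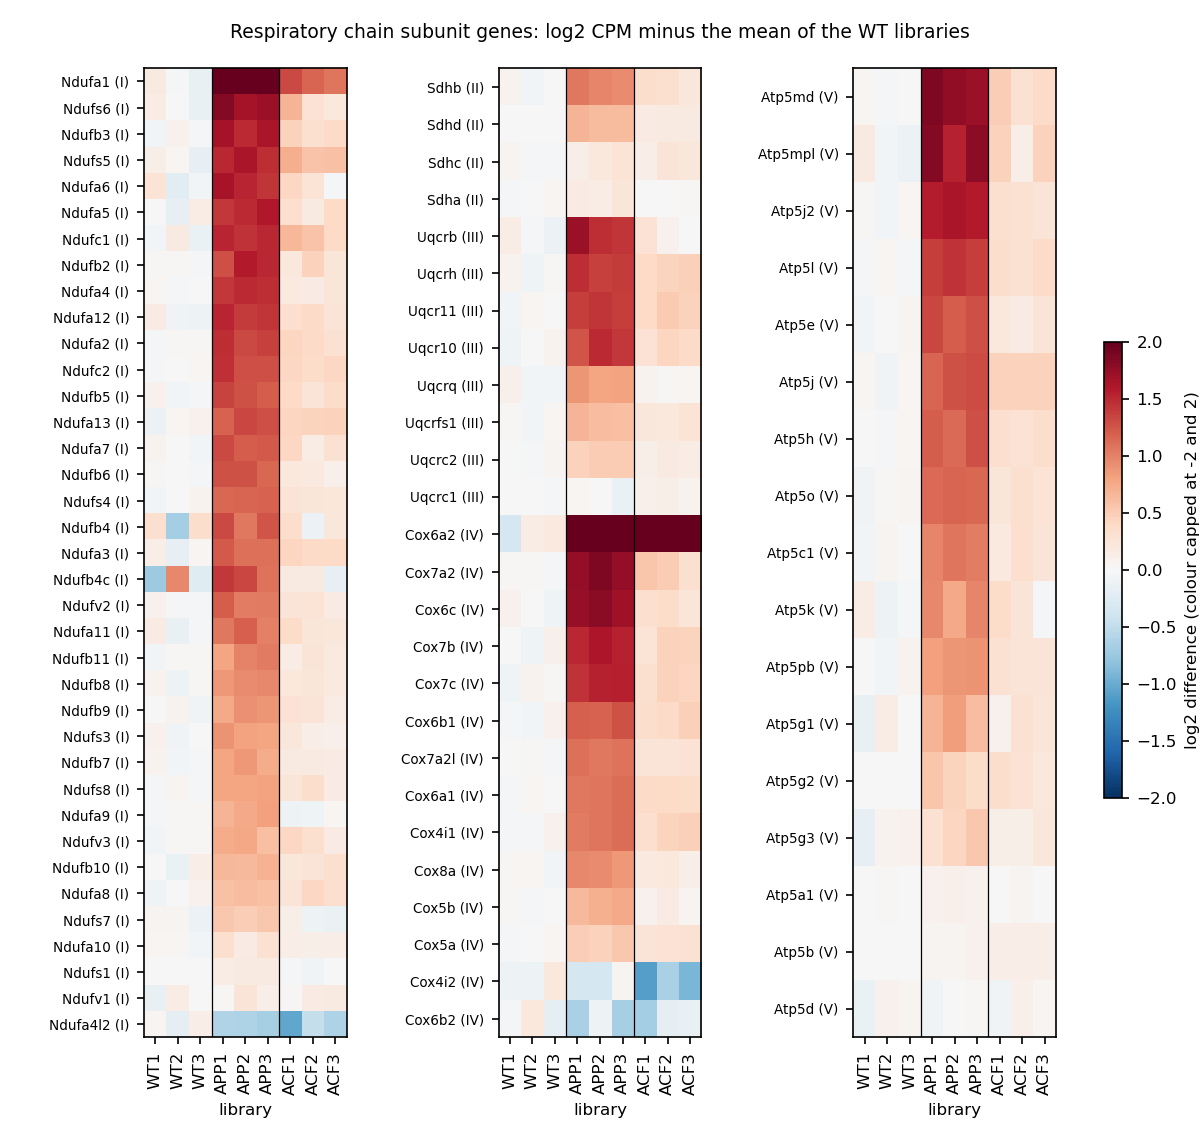
Each row is one of 80 subunit genes with its complex in parentheses and each column one library; colour gives log2 CPM minus the mean of the 3 WT libraries, capped at -2 and 2. APP columns are red for nearly all genes and ACF columns paler, with Ndufa4l2 blue in both and Cox6a2 at the cap in both.

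**Figure D2:**
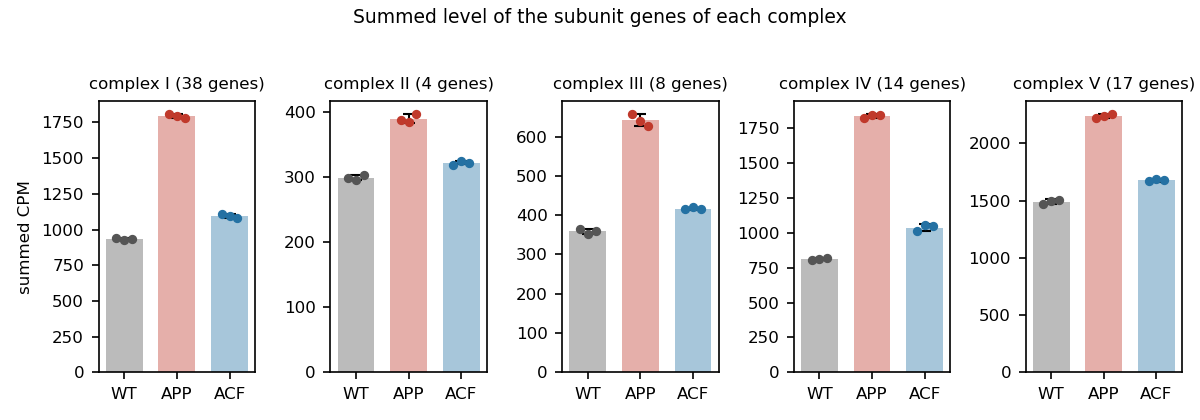
Summed CPM of the subunit genes of each complex; bars are group means, points the 3 libraries and error bars the SD. In every complex the APP libraries lie highest and the ACF libraries lie between APP and WT.

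Transcript length moved with these changes and stands here beside them. The members are short: their median effective length, from the deposited counts and FPKM, was 672 nt, and 63 of the 81 lay in the shortest of 10 equal bins of genes (median length of the bin 870 nt). The other 1296 genes of that bin showed a median of 0.61 on the log2 scale in APP against WT (68.6% called higher), of -0.52 in ACF against APP (68.5% called lower) and of 0.17 in ACF against WT (41.5% called higher). The 63 members in the same bin had medians of 1.21, -0.87 and 0.29. In the same order of comparisons, 401, 272 and 103 of the 1296 other genes were called with at least a 2-fold change. Of the 63 members 40, 22 and 2 were. Groups did not overlap in CPM for 1045, 1049 and 786 of the other genes, and for 60, 59 and 53 of the 63 members. Among the 81 members, Spearman's rho between length and log2 change was -0.57 in APP against WT and 0.56 in ACF against APP, against -0.31 and 0.27 across all genes; this is across genes that share libraries. When each library was given offsets by bin of length (10 bins), 56 members were higher and 10 lower in APP than in WT (27.5% and 30% of 13586 genes, 57.6% in all), with a median of 0.43. For ACF against APP 12 were then higher and 55 lower (27.4% and 27.3% of genes, 54.7% in all; median -0.30). For ACF against WT 37 were higher and 5 lower (25.9% and 22.8% of genes, 48.7% in all; median 0.12). Offsets by both GC content and length, which could be made for 80 members, gave 59 higher and 9 lower in APP against WT (27.2% and 30% of 13366 genes, 57.1% in all), 12 and 56 in ACF against APP (27.9% and 27.1%, 55% in all) and 36 and 4 in ACF against WT (27.4% and 23.8%, 51.2% in all). Of the 76 calls in APP against WT, 57 kept their sign with length offsets, 5 turned over (Ndufs7, Sdhc, Cox5a, Atp5g2 and Atp5g3) and 14 were lost. For ACF against APP 57 of 76 kept their sign, 6 turned over (Ndufa8, Ndufb10, Cox5a, Cox6a2, Atp5g2 and Atp5g3) and 13 were lost. For ACF against WT 39 of 62 kept their sign, none turned over and 23 were lost. The part of RNA integrity or fragment size in this was not tested.

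**Figure D3:**
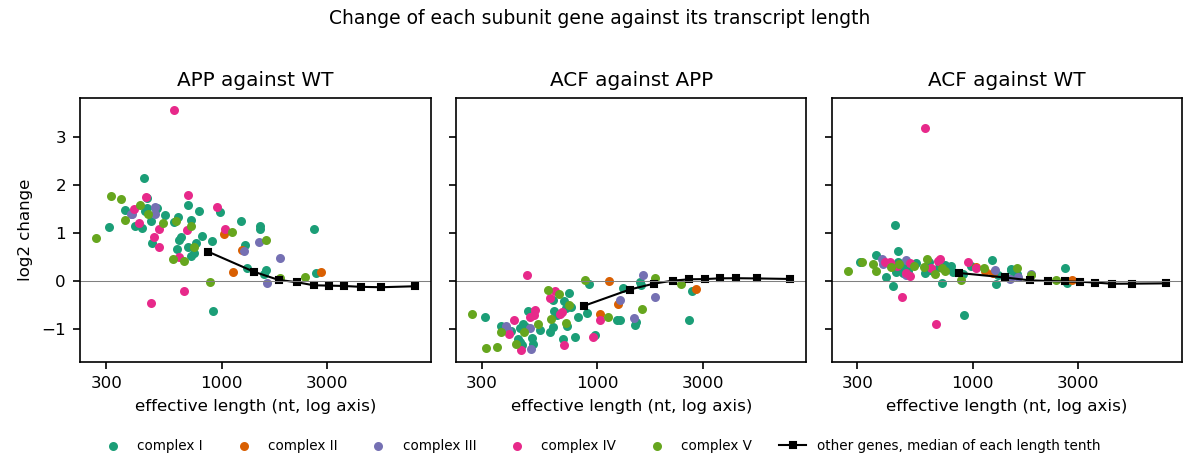
Log2 change of each subunit gene (points, coloured by complex) against its effective length in nt on a log axis, for the 3 comparisons; squares are medians of the other genes in each of 10 length bins. Most members lie at the short end, above the line of the other genes in APP against WT and below it in ACF against APP.

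**Figure D4:**
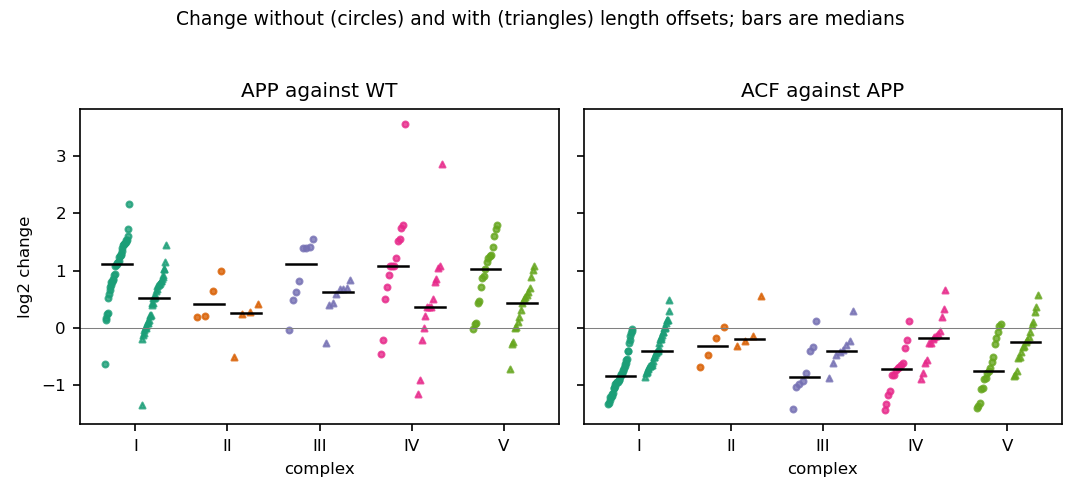
Log2 change of each subunit gene by complex without length offsets (circles) and with them (triangles), with medians as bars. With offsets the medians stay on the same side of 0 in each complex and are smaller, from 0.26 to 0.63 in APP against WT.

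Promoter sequences were available from RefSeq (GRCm38.p6) for 65 of the 81 members, as 70 windows from 250 bases before to 50 after the gene start. The motifs searched, on both strands, are those of factors long tied to mitochondrial genes: GCATGCGC for NRF1, CCGGAAG for ETS factors such as GABPA, AAGATGGC for YY1, TGACGTCA for the cyclic AMP response element (CRE) and TCAAGGTCA for ESRRA. NRF1 letters were in 14.3% of the members' windows and 3.998% of the 18335 windows of genes in the expression table, ETS letters in 24.3% and 13.2%, YY1 letters in 14.3% and 3.38%, CRE letters in 5.71% and 2.498%, and ESRRA letters in 2.86% and 0.316%. Any of them was in 50% of the members' windows and in 21.0% of those of the table. Over all 32851 RefSeq windows the shares were 2.71%, 8.86%, 2.75%, 1.79% and 0.423%, and 15.04% for any. For members with a match (35) the log2 changes had medians of 1.08 in APP against WT and -0.74 in ACF against APP, and those with a window and no match (30) of 1.15 and -0.86; the difference between the 2 sets was not tested. A match is a description of the letters and not of binding. The upstream 250 bases of 3 members are shown, 2 with both NRF1 and ETS matches and 1, the complex I gene with the largest rise in APP, with none; capitals mark the matches, and all 3 genes lie on the minus strand (chr5:115348959-115349208, chr9:44920743-44920992 and chrX:37191239-37191488).
Cox6a1: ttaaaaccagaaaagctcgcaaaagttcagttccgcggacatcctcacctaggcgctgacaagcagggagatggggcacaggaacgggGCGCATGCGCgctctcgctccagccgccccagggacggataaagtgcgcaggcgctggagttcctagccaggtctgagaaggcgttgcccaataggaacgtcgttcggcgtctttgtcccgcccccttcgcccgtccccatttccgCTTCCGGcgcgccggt
Atp5l: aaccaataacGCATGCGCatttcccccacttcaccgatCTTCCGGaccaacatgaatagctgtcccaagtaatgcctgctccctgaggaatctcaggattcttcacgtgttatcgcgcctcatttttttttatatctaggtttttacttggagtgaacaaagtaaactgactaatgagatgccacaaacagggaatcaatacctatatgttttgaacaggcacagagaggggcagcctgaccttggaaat
Ndufa1: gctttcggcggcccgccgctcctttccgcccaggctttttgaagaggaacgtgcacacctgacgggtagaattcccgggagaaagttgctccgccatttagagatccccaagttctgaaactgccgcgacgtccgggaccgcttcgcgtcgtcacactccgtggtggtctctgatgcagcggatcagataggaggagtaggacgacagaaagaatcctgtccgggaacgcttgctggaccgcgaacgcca

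In Cox6a1 the NRF1 letters begin 162 and 160 bases before the start, overlapping on opposite strands, and the ETS letters 16 bases before it. In Atp5l, a subunit of the membrane part of ATP synthase, they begin 240 and 212 bases before it, and another ETS match begins at base 25 counted from the start, outside the printed stretch. Both genes rose in APP, by 1.08 (SE 0.04) and 1.40 (SE 0.04) on the log2 scale, and both fell in ACF against APP; the rise was 0.37 and 0.69 with length offsets.

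Complex I genes summed to 942, 929 and 935 CPM in WT, 1809, 1795 and 1783 in APP, and 1112, 1095 and 1084 in ACF. In APP against WT 36 of 38 were higher and Ndufa4l2 lower, with a median log2 change of 1.12. ACF was lower than APP for 36 of 38 (median -0.84), and in ACF against WT 29 were higher and 1 lower (median 0.25; 12 and 3 with length offsets, median 0.11). Accessory subunits and core subunits differed in the size of change: the median was 1.23 for 31 accessory genes and 0.52 for 7 core genes in APP against WT, and -0.94 and -0.54 in ACF against APP. Their median lengths were 632 and 1491 nt, and the difference between them was not tested. With length offsets the medians were 0.57 for accessory and 0.081 for core genes in APP against WT, and -0.43 and -0.0088 in ACF against APP. The complex I median was then 0.52 in APP against WT (25 higher and 2 lower) and -0.40 in ACF against APP (3 higher and 25 lower).

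Ndufa1, an accessory subunit of the membrane arm encoded on the X chromosome, rose most among complex I genes. Its level was 14.3, 12.4 and 11.4 CPM in WT, 62.5, 53.9 and 52.9 in APP, and 31.4, 28.3 and 26.4 in ACF. No library of one group reached the range of another. The rise in APP was 4.45-fold (log2 change 2.15, SE 0.090, adjusted p = 1.53e-11), and ACF lay 2.26-fold above WT (adjusted p = 1.21e-07). With length offsets the log2 changes of Ndufa1 were 1.44 in APP against WT, -0.43 in ACF against APP and 1.01 in ACF against WT. The other X-linked members, Ndufb11 and Cox7b, rose by 0.94 and 1.56 in APP and fell by 0.75 and 1.16 in ACF against APP on the log2 scale (0.23 and 0.84, then -0.20 and -0.62, with length offsets). Ndufs6, an accessory subunit of the matrix arm, had 9.03, 8.13 and 7.29 CPM in WT, 28.9, 25.8 and 26.6 in APP, and 13.03, 9.88 and 9.38 in ACF. APP stood apart above both other groups, and the fall in ACF was the largest among complex I genes (2.52-fold, log2 change -1.33, SE 0.095, adjusted p = 2.42e-10). With length offsets Ndufs6 was 1.02 in APP against WT and -0.79 in ACF against APP. The largest complex I fall in ACF against APP was then that of another gene, at -0.86.

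The catalytic core genes Ndufs1 and Ndufv1 changed by less than the complex I median. Ndufs1, the large iron-sulfur subunit, had 49.0, 49.3 and 49.5 CPM in WT, 54.6, 55.7 and 56.1 in APP, and 48.5, 46.7 and 48.9 in ACF. APP lay above both groups by a small margin, a log2 change of 0.17 (SE 0.043, adjusted p = 0.00122) against WT and of -0.21 in ACF against APP (adjusted p = 2.01e-04). Ndufv1, which binds NADH and the flavin, was not called in any comparison by the main edgeR fit of all 9 libraries, which has no block. Its log2 changes there were 0.14, -0.02 and 0.12, with adjusted p from 0.134 to 0.838. With the replicate block it was called higher in APP and in ACF than in WT (0.14 and 0.12, adjusted p = 0.00157 and 0.00797). It was called lower in APP than in WT on TPM (-0.24, limma adjusted p = 0.0114) and with length offsets and the block together (-0.095, adjusted p = 0.0327), where it was also called higher in ACF than in APP (0.14, adjusted p = 0.00195). Without WT replicate 2 it was called higher in APP than in WT (0.22, adjusted p = 0.00816) and in ACF than in WT (0.20). On TPM in place of CPM, Ndufs1 turned over in APP against WT, to -0.21. Ndufb4 and Ndufb4c, near copies that shared reads unevenly between libraries, are uncertain one by one; their sum was 16.9 ± 0.959 CPM in WT, 37.1 ± 2.75 in APP and 17.3 ± 1.94 in ACF (SD, n = 3).

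Complex II, which is also succinate dehydrogenase of the citrate cycle, had the smallest median change among the complexes in APP against WT and in ACF against APP; with length offsets complex IV had a smaller one in ACF against APP (-0.18, against -0.19 for complex II). Its 4 genes summed to 299, 295 and 304 CPM in WT, 389, 384 and 397 in APP, and 319, 325 and 322 in ACF. All 4 were higher in APP than in WT (median log2 change 0.42), and 3 of 4 were lower in ACF than in APP (median -0.32). With length offsets 3 were higher and 1 lower in APP (median 0.26). Sdhb, the iron-sulfur subunit, had 37.9, 35.0 and 36.0 CPM in WT, 75.1, 71.7 and 69.8 in APP, and 46.2, 45.2 and 42.7 in ACF. It rose 1.99-fold in APP (adjusted p = 6.7e-16) and fell 1.61-fold in ACF against APP (adjusted p = 1.17e-12). With length offsets the log2 changes of Sdhb were 0.28 and -0.15. Sdha, the flavoprotein, had 168, 171 and 177 CPM in WT, 192, 191 and 203 in APP, and 173, 173 and 175 in ACF. WT and ACF overlapped, and the rise in APP was 0.18 on the log2 scale (SE 0.033, adjusted p = 3.2e-05). On TPM Sdha was called lower in APP than in WT (-0.21, limma adjusted p = 1.28e-04). Membrane anchors differed from each other: Sdhd rose by 0.65 in APP and fell by 0.47 in ACF against APP (0.41 and -0.31 with length offsets), whereas Sdhc rose by 0.20 in APP and had 52.3, 55.7 and 58.1 CPM in APP and 52.6, 57.9 and 56.5 in ACF, which overlapped (log2 change 0.01, adjusted p = 0.91). With length offsets Sdhc turned to -0.51 in APP against WT and was called higher in ACF than in APP (0.55, adjusted p = 6.51e-10).

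Complex III genes summed to 365, 351 and 360 CPM in WT, 657, 638 and 627 in APP, and 415, 420 and 416 in ACF. Of 8 genes, 7 were higher in APP than in WT (median log2 change 1.11). Against APP, 7 were lower and 1 higher in ACF (median -0.86), and in ACF against WT 5 were higher (median 0.19; also 5 with length offsets, median 0.14). With length offsets 7 were higher and 1 lower in APP than in WT (median 0.63), and 1 higher and 7 lower in ACF than in APP (median -0.41). Uqcrb, a small subunit at the ubiquinone-binding region, had 29.7, 26.4 and 24.9 CPM in WT, 88.9, 75.04 and 72.7 in APP, and 33.0, 28.5 and 27.1 in ACF. ACF overlapped WT (log2 change 0.13, adjusted p = 0.415) and lay 2.67-fold below APP (log2 change -1.42, SE 0.103, adjusted p = 2.64e-06). Uqcr11, a small accessory subunit, kept more of its rise: 16.9, 18.1 and 17.7 CPM in WT, 45.8, 47.1 and 45.8 in APP, and 23.1, 25.4 and 24.1 in ACF, a log2 change of 0.46 in ACF against WT (adjusted p = 3.78e-07). With length offsets Uqcrb was 0.83 in APP against WT and -0.87 in ACF against APP, and Uqcr11 0.68 and -0.39. Uqcrfs1, the Rieske iron-sulfur protein, rose by 0.63 in APP and fell by 0.40 in ACF against APP (0.39 and -0.23 with length offsets). Uqcrc1, a large core protein, was not called in APP against WT (log2 change -0.03, adjusted p = 0.555), but was called lower with length offsets (-0.27, adjusted p = 7.39e-06). It was slightly higher in ACF than in APP (log2 change 0.13, adjusted p = 0.0136), a call that was lost without APP replicate 3 and without ACF replicate 2.

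Complex IV had the largest ratio of sums between APP and WT, 802, 811 and 818 CPM in WT against 1818, 1842 and 1846 in APP, with 1009, 1053 and 1045 in ACF. In APP against WT 12 of 14 genes were higher and none was called lower (median log2 change 1.08). Against APP, 13 were lower in ACF (median -0.72), and in ACF against WT 11 were higher and 1 lower (median 0.35; 9 and 1 with length offsets, median 0.18). With length offsets 10 were higher and 3 lower in APP than in WT (median 0.37), and 3 higher and 9 lower in ACF than in APP (median -0.18). Cox6c, a small nuclear subunit with a single form, had 44.7, 42.2 and 39.5 CPM in WT, 141, 148 and 136 in APP, and 53.1, 54.4 and 50.004 in ACF. The groups did not overlap; the rise in APP was 3.36-fold (log2 change 1.75, SE 0.046, adjusted p = 1.6e-21) and the fall in ACF 2.69-fold (log2 change -1.43, adjusted p = 9.05e-20). Cox7a2 rose by 1.80 and fell by 1.34 on the log2 scale in the same comparisons. With length offsets the changes were 1.04 and -0.88 for Cox6c and 1.09 and -0.79 for Cox7a2. Cox4i1, an early-assembling subunit, had the highest level per length of all members, 670 ± 32.7 TPM in WT, 1074 ± 24.9 in APP and 781 ± 41.4 in ACF (SD, n = 3). In CPM it rose 2.10-fold in APP (adjusted p = 2.53e-16) and fell 1.57-fold in ACF against APP (adjusted p = 1.94e-12), log2 changes that were 0.36 and -0.11 with length offsets.

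Alternative isoforms of complex IV were Cox6a2, which moved in the same directions as its common form, and Cox4i2 and Cox6b2, which were not called in APP against WT. Cox6a2, the form typical of heart and skeletal muscle, had 1.85, 2.56 and 2.64 CPM in WT, 28.9, 28.7 and 26.1 in APP, and 20.9, 22.4 and 22.03 in ACF. Both disease-model groups stood far above WT. The rise in APP was 11.8-fold (log2 change 3.56, SE 0.100, adjusted p = 4.94e-21), the largest of all members, and 76% of it was still seen in ACF. ACF lay 1.28-fold below APP (log2 change -0.36, adjusted p = 4.35e-05), which turned to 0.19 with length offsets; in APP against WT the change with these offsets was 2.85. Cox6a1, the common form, rose 2.11-fold in APP and fell 1.62-fold in ACF against APP (0.37 and -0.15 on the log2 scale with length offsets). In TPM, Cox6a2 made up 2.65 ± 0.457% of the Cox6a pair in WT, 13.3 ± 0.949% in APP and 16.2 ± 0.435% in ACF (SD, n = 3). The cell type of origin of these Cox6a2 reads was not tested.

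Cox4i2, an isoform tied to low oxygen, had 2.74, 2.76 and 3.43 CPM in WT, 2.35, 2.31 and 3.07 in APP, and 1.38, 1.88 and 1.56 in ACF. It was lower in ACF than in WT (log2 change -0.89, SE 0.190, adjusted p = 3.6e-04) and than in APP (-0.68, adjusted p = 0.00495), while WT and APP overlapped (adjusted p = 0.323). With length offsets Cox4i2 was called lower in APP than in WT (-0.92, adjusted p = 9.24e-05), and ACF against APP was no longer called (-0.14, adjusted p = 0.59). The vessel marker sum given above was also lowest in ACF, and its part in this result was not tested. Cox6b2, the testis form, was not called in any comparison (adjusted p from 0.109 to 0.715). With length offsets it was called lower in APP than in WT (-1.16, adjusted p = 1.93e-04) and higher in ACF than in APP (0.66, adjusted p = 0.0293). Ndufa4l2, the low-oxygen paralogue of Ndufa4, had 6.84, 5.86 and 7.29 CPM in WT, 4.37, 4.30 and 4.20 in APP, and 3.23, 4.76 and 4.32 in ACF. It was the only member called lower in APP than in WT (log2 change -0.63, SE 0.131, adjusted p = 1.65e-04), and APP and ACF overlapped; with length offsets Ndufa4l2 was higher in ACF than in APP (0.48, adjusted p = 0.00672). Ndufa4 itself rose by 1.46 in APP and fell by 1.26 in ACF against APP (0.75 and -0.72 with length offsets), so that Ndufa4l2 made up 9.41 ± 0.863% of the pair in TPM in WT, 2.38 ± 0.104% in APP and 5.29 ± 1.00% in ACF.

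**Figure D5:**
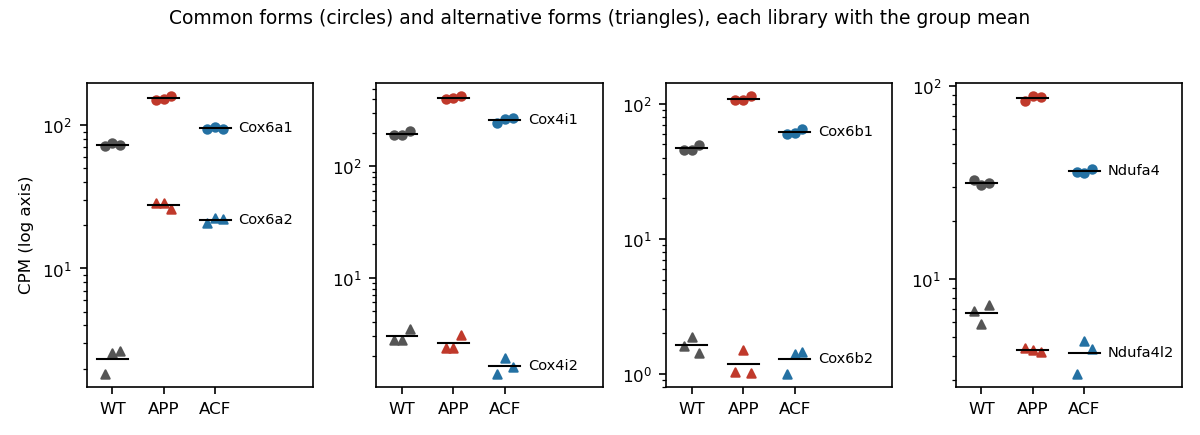
CPM on a log axis of common forms (circles) and alternative forms (triangles) of 4 subunit pairs, each library with the group mean as a bar. Cox6a2 is over 20 CPM in all APP and ACF libraries and under 3 CPM in WT, whereas the other alternative forms are at their highest mean in WT.

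Complex V genes summed to 1469, 1497 and 1507 CPM in WT, 2219, 2241 and 2255 in APP, and 1668, 1691 and 1676 in ACF. In APP against WT 16 of 17 were higher (median log2 change 1.02), in ACF against APP 15 were lower and 1 higher (median -0.76), and in ACF against WT 12 were higher (median 0.28; 10 higher and 1 lower with length offsets, median 0.11). With length offsets 11 were higher and 3 lower in APP than in WT (median 0.44), and 4 higher and 11 lower in ACF than in APP (median -0.24). The parts of the enzyme differed in size of change. The 5 genes of the catalytic F1 head had a median of 0.09 in APP against WT, the 3 genes of the proton-carrying c ring 0.46 and the 9 genes of the stalk and membrane part 1.25, with median lengths of 1118, 672 and 464 nt. ACF against APP gave medians of -0.07, -0.27 and -0.89. With length offsets the order of the parts changed: the medians were 0.09, -0.25 and 0.63 in APP against WT and -0.08, 0.27 and -0.43 in ACF against APP. These differences between parts were not tested.

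Atp5md, a small membrane subunit, had 14.7, 13.8 and 14.2 CPM in WT, 51.8, 48.4 and 47.0 in APP, and 19.9, 17.6 and 18.6 in ACF. The groups did not overlap, with a 3.45-fold rise in APP (log2 change 1.79, SE 0.060, adjusted p = 2.45e-19) and a 2.62-fold fall in ACF against APP (adjusted p = 3.17e-17). With length offsets the log2 changes of Atp5md were 1.07 and -0.85. Atp5j had the largest rise of complex V genes in ACF against WT, 0.46 on the log2 scale. Its means were 39.7 CPM in WT, 94.3 in APP and 54.7 in ACF. With length offsets the largest complex V rise in ACF against WT was 0.29. Atp5b, the catalytic beta subunit, had 410.5, 405 and 413 CPM in WT, 425, 426 and 436 in APP, and 449, 450.4 and 447 in ACF. In CPM it was highest in ACF by small steps, 0.07 from WT to APP (adjusted p = 0.0362) and 0.06 from APP to ACF (adjusted p = 0.0449); the first call was lost without any one of the WT libraries, APP replicate 1 or APP replicate 3, the other without any one of the 9 libraries, and Atp5b in APP against WT turned to -0.07 on library totals. On TPM, where the median of all genes was also below 0, WT was highest: Atp5b was -0.33 in APP against WT (limma adjusted p = 1.57e-07) and -0.066 in ACF against WT (adjusted p = 0.0281). Per length it was the most abundant member after Cox4i1 in WT, at 527 ± 5.62 TPM, against 421 ± 5.63 in APP and 504 ± 1.82 in ACF (SD, n = 3). Atp5a1, the alpha subunit, rose by 0.09 in APP, but turned to -0.30 on TPM, and from -0.07 to 0.13 in ACF against APP. Atp5d, the delta subunit, was not called in APP against WT (log2 change -0.01, adjusted p = 0.843) or in ACF against APP (0.03, adjusted p = 0.658). With length offsets Atp5d was called lower in APP than in WT (-0.73, adjusted p = 1.21e-09) and higher in ACF than in APP (0.58, adjusted p = 4.48e-08). Atp5g1, Atp5g2 and Atp5g3 encode the same mature c subunit and rose by 0.71, 0.46 and 0.43 in APP; with length offsets Atp5g1 was no longer called (-0.0012, adjusted p = 0.989) and the others turned to -0.25 and -0.29.

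Genes that serve the chain were read from lists, counted as higher and lower beside the median log2 change. Over all tested genes 26.9% were higher and 32% lower in APP than in WT, with a median of -0.04. In ACF against APP 27.3% were higher and 27.7% lower. With length offsets the shares were 27.5% and 30% in APP against WT, and 27.4% and 27.3% in ACF against APP. Of 46 assembly factors tested, 31 were higher and 2 lower in APP than in WT (median 0.43), and 2 were higher and 29 lower in ACF than in APP (median -0.51). With length offsets 20 were higher and 2 lower (median 0.24), and 1 higher and 23 lower (median -0.22). Sdhaf4, which assembles succinate dehydrogenase, rose by 1.90 in APP and fell by 1.58 in ACF against APP (1.19 and -1.03 with length offsets). Lyrm7, a chaperone of the Rieske protein, fell by 1.76 in APP against WT and by 2.07 in ACF against WT (-1.70 and -2.07 with length offsets). Of 13 genes for electron carriers, 7 were higher in APP and none lower (median 0.25), among them Cycs, cytochrome c, by 1.00 (1.08 with length offsets); with length offsets 5 were higher and 2 lower (median 0.12). Of 19 genes of the citrate cycle and pyruvate entry, 11 were higher (57.9%) and 5 lower (26.3%) in APP (median 0.29); with length offsets 8 were higher and 5 lower (median 0.053). Mpc1, a subunit of the mitochondrial pyruvate carrier, rose by 1.17 (0.46 with length offsets), and Cs, citrate synthase, was not called (log2 change -0.07, adjusted p = 0.12; -0.0088 with length offsets, adjusted p = 0.848). Of 15 genes for membrane transport and import, 10 were higher and 1 lower (median 0.40); with length offsets 7 were higher and 3 lower (median 0.068). Of this list Hspe1, a small chaperonin, rose by 1.42 (0.71 with length offsets).

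Regulators of mitochondrial biogenesis had medians near 0. Of 15, 4 were higher (26.7%) and 6 lower (40%) in APP than in WT (median 0.05), where all tested genes had 26.9% and 32%. In ACF against APP 3 were higher (20%) and 5 lower (33.3%, median -0.05), where all genes had 27.3% and 27.7%. In ACF against WT none was higher and 6 were lower (40%, median -0.05), where all genes had 24.7% and 23%. With length offsets, which left 14 of them, 5 were higher and 5 lower in APP (median 0.069), and 3 higher and 6 lower in ACF than in APP (median -0.092). In ACF against WT 1 was then higher and 3 were lower (median -0.059). All genes with these offsets had 27.5% and 30%, 27.4% and 27.3%, and 25.9% and 22.8% in the same order of comparisons. Ppargc1a, a coactivator of these genes, rose by 0.44 in APP (adjusted p = 0.0364) and fell by 1.01 in ACF against APP (adjusted p = 7.05e-05); it had no value with length offsets. Nrf1 and Gabpa, whose motifs were searched above, were not called in APP against WT (log2 changes -0.09 and 0.05, adjusted p = 0.218 and 0.421). With length offsets Nrf1 was -0.0040 (adjusted p = 0.959), and Gabpa was called higher in APP (0.16, adjusted p = 0.00627). Glycolysis genes had a positive median in APP against WT and in ACF against APP; their difference from the members was not tested. Of 14, 10 were higher and 2 lower in APP than in WT (median 0.43), where all genes had 26.9% and 32%. In ACF against APP 11 were higher and 2 lower (median 0.35), where all genes had 27.3% and 27.7%, and Pkm, pyruvate kinase, was up by 0.52. In ACF against WT 11 of 14 were higher and none lower (median 0.71), where all genes had 24.7% and 23%. With length offsets these counts were 10 and 2 (median 0.25), 11 and 1 (median 0.39), and 11 and none (median 0.70), and Pkm was 0.50 in ACF against APP.

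Genes of other large complexes were also higher in APP than in WT and lower in ACF than in APP. Of all tested genes 26.9% were higher in APP than in WT, and 27.7% were lower in ACF than in APP. All 78 cytosolic ribosomal protein genes tested were higher in APP than in WT (median 1.15) and lower in ACF than in APP (median -0.89). Mitochondrial ribosomal protein genes were higher in APP for 66 of 78 (median 0.62) and lower in ACF for 62 of 78 (median -0.46), and proteasome subunit genes for 33 of 40 (median 0.58) and 30 of 40 (median -0.39). In ACF against WT 58 cytosolic ribosomal genes (74.4%) were higher and 2 lower (median 0.24). Mitochondrial ribosomal genes had 17 higher and 3 lower (median 0.11), and proteasome genes 29 and 0 (median 0.23). Of all tested genes 24.7% were higher and 23% lower in that comparison. With length offsets, counts of higher and lower genes in APP against WT were 64 and 5 for cytosolic ribosomal genes (median 0.49), 32 and 14 for mitochondrial ribosomal genes (0.11) and 24 and 3 for proteasome genes (0.19). Of all genes 27.5% were then higher and 30% lower. In ACF against APP the counts with offsets were 5 and 62 (median -0.40), 11 and 33 (-0.13) and 10 and 18 (-0.06). The last 2 lists thus had 14.1% and 42.3%, and 25% and 45%, where all genes had 27.4% higher and 27.3% lower. In ACF against WT they were 34 and 7 (median 0.10), 9 and 7 (0.0021) and 20 and 2 (0.13), where all genes had 25.9% and 22.8%. The difference between these lists and the respiratory chain genes was not tested.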

How the data were processed

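Poly-A RNA was sequenced on a DNBSEQ machine with single reads of 50 nt, per the labels' protocols. Per the submitters' processing notes the build is GRCm38.p6 and HISAT, Bowtie2 and DESeq2 were used; the counter and annotation are not given in the sources used here. Per the file headers the authors deposited TPM, FPKM and estimated count values for every library, and a normalised signal (counts times a factor per library); that signal and the group means were not analysed. Estimated counts, rounded to integers, were tested with edgeR 4.0.16 (R 4.3.3; TMM scaling, filterByExpr, robust quasi-likelihood fit of all 9 libraries), with Benjamini-Hochberg adjustment over 14696 genes at 0.05. Log2 changes are from this fit, CPM values use TMM-scaled library sizes, and levels between genes are compared in TPM. Effective length was the deposited count over FPKM. The fit was tested on simulated data.

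Members and gene lists were chosen with earlier results of these data known. Named genes are, per complex and comparison, the largest rise and fall without overlap between groups; preset catalytic subunits and paralogue pairs; up to 4 genes per list; the lowest members; and Gja1, Cx3cr1 and Ddx3y. Others are named where they turn over or fall outside a count, after their values were seen. Alternatives were DESeq2 1.42.0 (size factors, Wald test), library totals, other count filters, only the groups compared, limma-trend (limma 3.58.1) on log2(FPKM + 1), log2(FPKM + 0.1) and log2(TPM + 1), 10 bins of length with and without GC content, the replicate number as a block, and leaving out each library. Promoters came from RefSeq; 16 members had no window. The design assumed plain counts where the file holds estimated ones. The values of 1 member are not reported here by name; it stays in every count, sum and median.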

Additional observations from a re-analysis of the deposited data

How the results depend on the processing

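The members' medians kept their sign under the 23 alternatives that give a median (a fold threshold gives none), from 0.43 to 1.12 in APP against WT, -0.79 to -0.28 in ACF against APP and 0.068 to 0.29 in ACF against WT; the counts and single genes below changed. Library totals moved the median of all genes to -0.17 in APP against WT and -0.12 in ACF against WT, and TPM moved it to -0.38 and -0.18, so changes there are read against those shifts. In APP against WT the number of members called higher and lower was 75 and 1; called lower were 5 on library totals, 6 on log2(FPKM + 1) and on log2(FPKM + 0.1), 12 (with 64 higher) on TPM, 10 with length offsets (12 with the replicate block), and 9 with GC and length offsets (9 with the block). With at least a 2-fold change 44 were called, 44 higher and 0 lower. Without a library 74 to 76 were called, 73 to 75 higher and 1 to 2 lower (2 without APP replicate 2). In ACF against APP, members called higher numbered 1 without a filter on low counts and 1 with only the groups compared, 12 with length offsets (15 with the block), 12 with GC and length offsets (13 with the block) and 6 on TPM. At 2-fold 22 were called, 0 higher and 22 lower. Leaving out a library gave 71 to 74 calls, 0 to 1 higher (0 without APP replicate 3 and without ACF replicate 2) and 70 to 73 lower. In ACF against WT, 37 were higher and 5 lower with length offsets (5 lower with the block), 40 were called with GC and length offsets, 36 higher and 4 lower (4 lower with the block), 6 were lower on library totals, 7 on either FPKM scale, and on TPM 29 were higher and 13 lower. At 2-fold 2 were called, 2 higher and 0 lower, and without a library 59 to 63, of which 57 to 61 were higher and 2 lower.

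Among the named members these turned over, where the cause was not tested. In APP against WT, Atp5b was -0.071 on library totals, -0.0705 on log2(FPKM + 1), -0.071 on log2(FPKM + 0.1), -0.33 on TPM and -0.019 with GC and length offsets, with the block too; Atp5a1 was -0.046 on library totals, -0.045 on log2(FPKM + 1), -0.046 on log2(FPKM + 0.1) and -0.30 on TPM. With length offsets Sdhc was -0.51, Atp5g1 -0.0012, Atp5g2 -0.25 and Atp5g3 -0.29; with the block they were -0.51, -0.0014, -0.25 and -0.29, and Ndufv1 was called at -0.095. Ndufs7 was -0.19, Ndufa8 -0.12, Ndufb10 -0.043 and Cox5a -0.22 with length offsets, and the same with the block. With GC and length offsets they were -0.023, -0.057, -0.0565 and -0.27, and with the block -0.023, -0.057, -0.056 and -0.27. Under these offsets Sdhc was -0.45, Atp5g2 -0.26 and Atp5g3 -0.30, and with the block also -0.45, -0.26 and -0.30. On TPM Ndufs1 was -0.21, Ndufv1 -0.24 (called lower), Sdha -0.21 and Sdhc -0.19. Gja1 in APP against WT was no longer past the threshold on library totals (0.105), on log2(FPKM + 1) (0.097) and on log2(FPKM + 0.1) (0.10), and turned to -0.14 on TPM; without a library it was 0.19 to 0.29, in ACF against APP -0.62 to -0.52 and in ACF against WT -0.36 to -0.28. In ACF against APP with length offsets Ndufa4l2 was 0.48, Cox6a2 0.19, Atp5g1 0.0445, Atp5g2 0.37 and Atp5g3 0.27; with the block they were 0.48, 0.19, 0.045, 0.37 and 0.27, and Ndufv1 was called at 0.14. Ndufa8 was 0.29, Ndufb10 0.14 and Cox5a 0.33 with length offsets, and the same with the block; with GC and length offsets they were 0.22, 0.14 and 0.36, with the block too. With GC and length offsets Ndufa4l2 was 0.39, Cox6a2 0.15, Atp5g2 0.37 and Atp5g3 0.27, and with the block 0.39, 0.15, 0.37 and 0.27. On TPM Atp5a1 was 0.13, Sdha 0.025 and Atp5g2 0.017. In ACF against WT, Sdha was -0.094 on library totals, -0.093 on log2(FPKM + 1) and -0.094 on log2(FPKM + 0.1), and Atp5a1 -0.083 on each of these; Atp5d was -0.15 with length offsets and -0.16 with GC and length offsets, with the block too; Ndufa4 was -0.0021 with GC and length offsets, with the block too; and on TPM Atp5a1 was -0.17, Atp5d -0.18, Uqcrc1 -0.10, Atp5b -0.066, Sdha -0.18, Sdhd -0.025 and Cox8a -0.020.

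The replicate numbers were not treated as pairs: libraries of the same number deviated together with correlations from 0.0743 to 0.261 over 9 pairs (mean 0.18), 2 of them, both with ACF replicate 3, under 0.1, against a mean of -0.092 over 18 pairs of different numbers. In APP against WT all 3 pairs were over 0.1, from 0.143 to 0.261. Within each other group every library correlated best with its own number, except APP replicate 3 with ACF replicate 2 (0.0985). The block lowered the biological coefficient of variation from 3.14% to 0.988%. The replicate block alone called 75 members higher and 1 lower in APP against WT, 2 and 74 in ACF against APP, and 67 and 2 in ACF against WT. Leaving out a library turned no called member over; Ndufb4c in ACF against WT, not called with all libraries, ranged from -0.40 without WT replicate 1 to 0.53 (called) without WT replicate 2. Calls lost in at least 1 such fit included Atp5b and Ndufb4c in APP against WT; Ndufa10, Ndufb4c, Uqcrc1, Atp5a1 and Atp5b in ACF against APP; and Ndufa5, Ndufa10, Ndufa11, Ndufb2, Ndufb7, Ndufs3, Ndufs6 and Atp5g1 in ACF against WT. Cox6b2 and Cox4i2 had the lowest counts of the members, and the part of depth in their results was not tested.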

Other observations

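Cx3cr1, the gene whose locus drives the Cre and part of the microglia marker list, had a mean level of 2259 CPM in WT, 2230 in APP and 1214 in ACF.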
